A study of Mus musculus with 4 samples.

Results

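Adhesion, junction and basement membrane genes of epithelial cells were examined for H3K36me3, the trimethyl mark on lysine 36 of histone H3 that SETD2 places on the bodies of transcribed genes. The 9 genes were listed by name: Plec, Fat1, Jup, Ctnnb1, Tjp1, Cdh1, Col4a1, Col4a2 and Itgb1, out of 21911 protein-coding genes with distinct symbols. They were chosen by the number of bases of each gene under control and Setd2-KO peaks: Plec and Fat1 were set against Jup and Col4a1 because the first pair kept most of its covered bases and the second pair lost all of them. The difference between genotypes in these genes is therefore a description and not a test.

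ChIP-seq, the sequencing of DNA pulled down with an antibody to the mark, was run on primary tubular epithelial cells (PTECs) taken from the kidney cortex of C57BL/6 mice. Control PTECs were SETD2fl/fl, with floxed alleles and no Cre, and Setd2-KO PTECs were SETD2fl/fl KspCre/+, with the same floxed alleles and Cre driven by the Ksp promoter, which is active in kidney tubular epithelium. For either genotype there was a single ChIP library with its input, so there were no replicates and no test between genotypes was made. The age of the mice from which these cells came and the share of cells in which Cre had acted are not given in the sources used here, where an age is stated for the mice of the multi-omics work as a whole. The labels name PTECs of these genotypes and were followed. In the study's reporting form 1 passage names Setd2-KO and control PTECs without giving their alleles. Another passage of that form names kidney cysts and neoplastic masses of mice with added MYC as the ChIP-seq material.

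Epithelial cells hold to each other through several kinds of contact. Adherens junctions join cells through cadherins, whose tails bind catenins and through them actin. Desmosomes use related cadherins and plakoglobin to anchor keratin filaments, and tight junctions seal the space between cells with the help of zonula occludens scaffolds. At the base of the cell, integrins bind laminins and type IV collagen of the basement membrane, and linker proteins such as plectin tie these contacts to the cytoskeleton. H3K36me3 builds up with transcription and is usually densest toward the end of a gene.

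The windows of 151 bases around the summit of the strongest peak are printed for the genes set against each other and for Cdh1. Each window is given 5′ to 3′ in the sense of the gene, from the RefSeq sequence of GRCm38.p6, with coding exon bases in capitals and all other bases in lower case. In Plec and Fat1 the summits lay inside long coding exons, so these windows are all capitals. In Jup, Col4a1 and Cdh1 they lay in introns, so these windows are all lower case.
Plec control (chr15:76174618-76174768, minus strand, exon 33): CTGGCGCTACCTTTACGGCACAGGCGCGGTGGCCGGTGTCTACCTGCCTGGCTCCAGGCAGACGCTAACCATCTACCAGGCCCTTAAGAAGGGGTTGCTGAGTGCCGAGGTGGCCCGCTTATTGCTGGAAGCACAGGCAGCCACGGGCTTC
Fat1 control (chr8:45040681-45040831, plus strand, exon 22): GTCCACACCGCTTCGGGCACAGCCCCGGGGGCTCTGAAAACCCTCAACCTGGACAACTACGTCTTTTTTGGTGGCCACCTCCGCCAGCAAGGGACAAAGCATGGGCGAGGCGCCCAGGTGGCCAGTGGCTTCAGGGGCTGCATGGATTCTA
Jup control (chr11:100375134-100375284, minus strand, intron): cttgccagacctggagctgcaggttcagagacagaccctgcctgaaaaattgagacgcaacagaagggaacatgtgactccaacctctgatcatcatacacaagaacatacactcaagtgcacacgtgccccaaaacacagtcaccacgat
Col4a1 control (chr8:11201024-11201174, minus strand, intron): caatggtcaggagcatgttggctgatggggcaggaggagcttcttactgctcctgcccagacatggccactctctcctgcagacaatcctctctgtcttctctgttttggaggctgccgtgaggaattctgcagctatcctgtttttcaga
Cdh1 Setd2-KO (chr8:106667491-106667641, plus strand, intron): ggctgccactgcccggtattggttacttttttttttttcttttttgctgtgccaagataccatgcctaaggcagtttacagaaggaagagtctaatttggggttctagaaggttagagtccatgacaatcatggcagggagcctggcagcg
The GC content was 63.6% in the window of Plec and 62.3% in that of Fat1. It was 49.7% in Jup, 53.0% in Col4a1 and 46.4% in Cdh1. In Ctnnb1, whose strongest control peak touched a Setd2-KO peak, the window was intronic with 44.4% GC and is not printed. A single window does not stand for all peaks of its gene. Over all control peaks of each gene, GC content was 61.4% in Plec, 49.1% in Fat1, 53.8% in Jup and 51.7% in Col4a1. By that measure Fat1 was below both Jup and Col4a1. Control summits lay in coding exons in 3 of 6 peaks of Plec, 6 of 10 of Fat1, 3 of 10 of Jup and 4 of 15 of Col4a1.

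The control list held 12242 peaks and the Setd2-KO list 2732. The genome-wide background that the fold enrichments imply was 6.58 fragments in control and 6.54 in Setd2-KO PTECs, so pileups (fragments stacked over a position) of both lists are on a like scale. Setd2 itself had 5 control peaks and 0 Setd2-KO peaks, which does not check the genotype labels, since peaks of this mark do not show whether an allele was deleted. Of 12 proximal tubule markers 10 carried a control peak, while none of 11 markers of later tubule segments (loop of Henle to collecting duct), none of 8 fibroblast and pericyte markers and none of 7 immune markers did. Podocyte markers had 1 of 5 (Podxl) and endothelial markers 3 of 7 (Egfl7, Kdr and Eng), where most of the bases of Egfl7 under control peaks, 4303 of 6622 bp, also belong to genes that overlap it. What part other cell types had in the peaks was not tested.

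Of the 9 genes, 8 carried a control peak, against 19.5% of all protein-coding genes, and 5 carried a Setd2-KO peak, against 7.37%. Cdh1 was marked in Setd2-KO PTECs alone, as were 0.639% of all genes. Among the 8 genes marked in control PTECs, 4 (Jup, Tjp1, Col4a1 and Col4a2) had no Setd2-KO peak, against 65.5% of all marked genes. In 6 of the 8 the covered bases were lower by 2-fold or more, against 87.5% of marked genes, and 2 (Plec and Fat1) kept more than 50% of them, against 12.5%. Nearest to that limit were Plec above it (69.8%) and Ctnnb1 below it (38.6%). A share kept compares lengths, the Setd2-KO bases with the control bases of the gene. It does not ask that the same bases be covered. These shares were what the genes were picked for, and nothing is read from them.

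**Figure D1:**
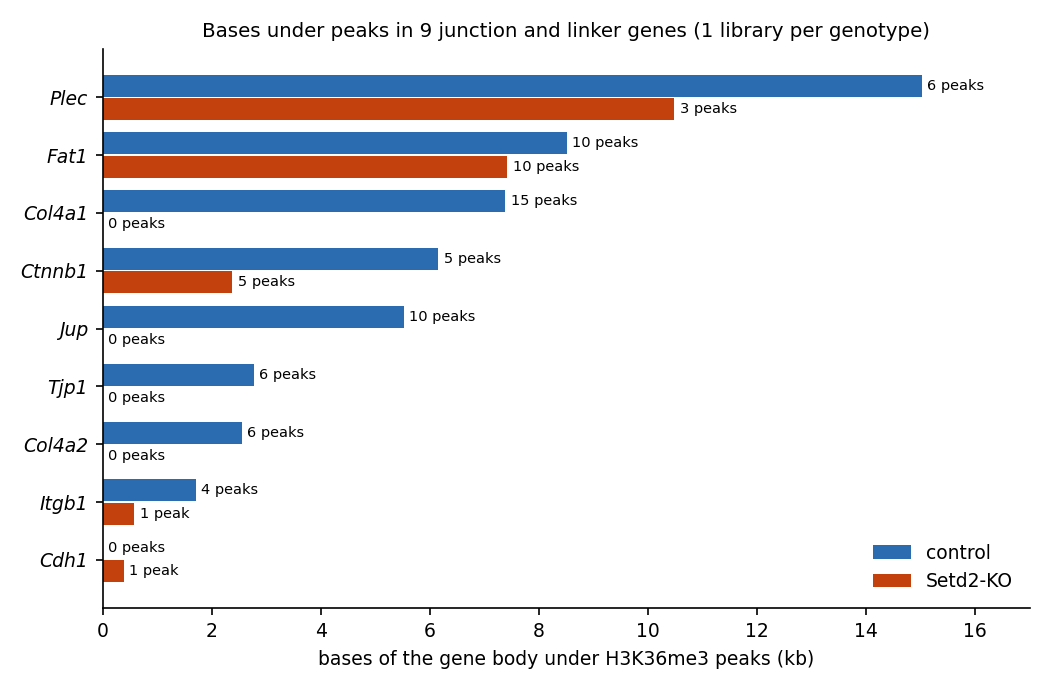
Bases of each gene body under H3K36me3 peaks (x axis, kb) for the 9 genes, in control (blue) and Setd2-KO (orange) PTECs, with the number of peaks beside each bar (1 library per genotype, so no error bars). Plec and Fat1 have long bars in both genotypes, Jup, Tjp1, Col4a1 and Col4a2 in control alone, and Cdh1 in Setd2-KO alone.

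Among the 185 genes with at least 5000 bp under control peaks, 10.8% had no Setd2-KO peak and 17.8% kept more than 50% of their covered bases. Plec, Fat1, Col4a1, Ctnnb1 and Jup belong to this group. Complete loss was rarer there than among genes with at least 1500 but under 5000 bp, the group of Tjp1, Col4a2 and Itgb1, in which 40.7% of 1168 genes had no Setd2-KO peak.

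Plec encodes plectin, a very large plakin that links intermediate filaments to actin, microtubules, desmosomes and integrins. The gene (ENSMUSG00000022565.15, chromosome 15, 76170974 to 76232574, minus strand) had 6 control peaks over 15020 bp and 3 Setd2-KO peaks over 10482 bp, so that 69.8% of the covered length was kept. It ranked 11 of 4279 genes by bases under control peaks and 3 of 1615 by bases under Setd2-KO peaks. All 10482 bp lay within control peaks, and all of them inside a single control peak.

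That control peak, from 76172049 to 76184127, was the longest in the control list at 12079 bp and held 80.4% of the control bases of the gene. It reached a fold enrichment (summit pileup over local background) of 9.76 with 73 fragments over the summit (95% Poisson interval 57.2 to 91.8). In Setd2-KO PTECs it was replaced by a peak of 9729 bp, the longest in that list, with a fold enrichment of 7.16 and 53 fragments (39.7 to 69.3), and by 2 short peaks of 342 bp and 411 bp. The counting intervals of the summits overlap. The intervals cover counting error alone, and a summit is by choice the highest point of its peak.

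The broad Plec peak follows the large terminal exons. In the transcript Plec-205, exon 32 has 3381 bp and exon 33 has 7412 bp. Control peaks covered 100% of exon 32 and 85.5% of exon 33, and Setd2-KO peaks covered 100% and 80.4%. Both exons thus stayed almost as covered as in control. The other 5 control peaks, between 76186169 and 76192279 over exons 7 to 23, had fold enrichments of 3.17 to 4.22, and none of them touched a Setd2-KO peak. The nearest Setd2-KO peak was 2687 bp or more away from each. Coding exons made up 78.3% of the control bases and 90.9% of the Setd2-KO bases, in a gene that is 24.1% coding.

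Fat1 encodes a giant atypical cadherin whose tail acts on actin and cell polarity at cell contacts. The gene (ENSMUSG00000070047.14, chromosome 8, 44935447 to 45052257, plus strand) had 10 peaks in each genotype, over 8511 bp in control PTECs and over 7419 bp in Setd2-KO PTECs, or 87.2% of the covered length. The called sites were not all the same: 4496 bp were covered in both genotypes, 52.8% of the control bases and 60.6% of the Setd2-KO bases. In each list 6 of the 10 peaks touched a peak of the other.

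Fat1 peaks clustered over the same stretches of the gene in both genotypes. A first cluster lay over exon 1 of the transcript Fat1-206 (3268 bp), of which control peaks covered 1168 bp and Setd2-KO peaks 1536 bp. A second lay over exon 10, which has 4068 bp, with 1605 bp and 1096 bp. The last ran over exons 16 to 29 and included the strongest peaks, over exons 22 to 24, each of them covered to 100% in both genotypes. The strongest control peak there, from 45040520 to 45042737, had a fold enrichment of 7.19 and 55 fragments (95% Poisson interval 41.4 to 71.6), and it touched Setd2-KO peaks of fold enrichment 5.57 and 4.77, with 41 and 35 fragments. Over exon 25 a Setd2-KO peak of fold enrichment 3.83 had no control peak, and over exons 16 and 21 control peaks covered bases that no Setd2-KO peak did.

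**Figure D2:**
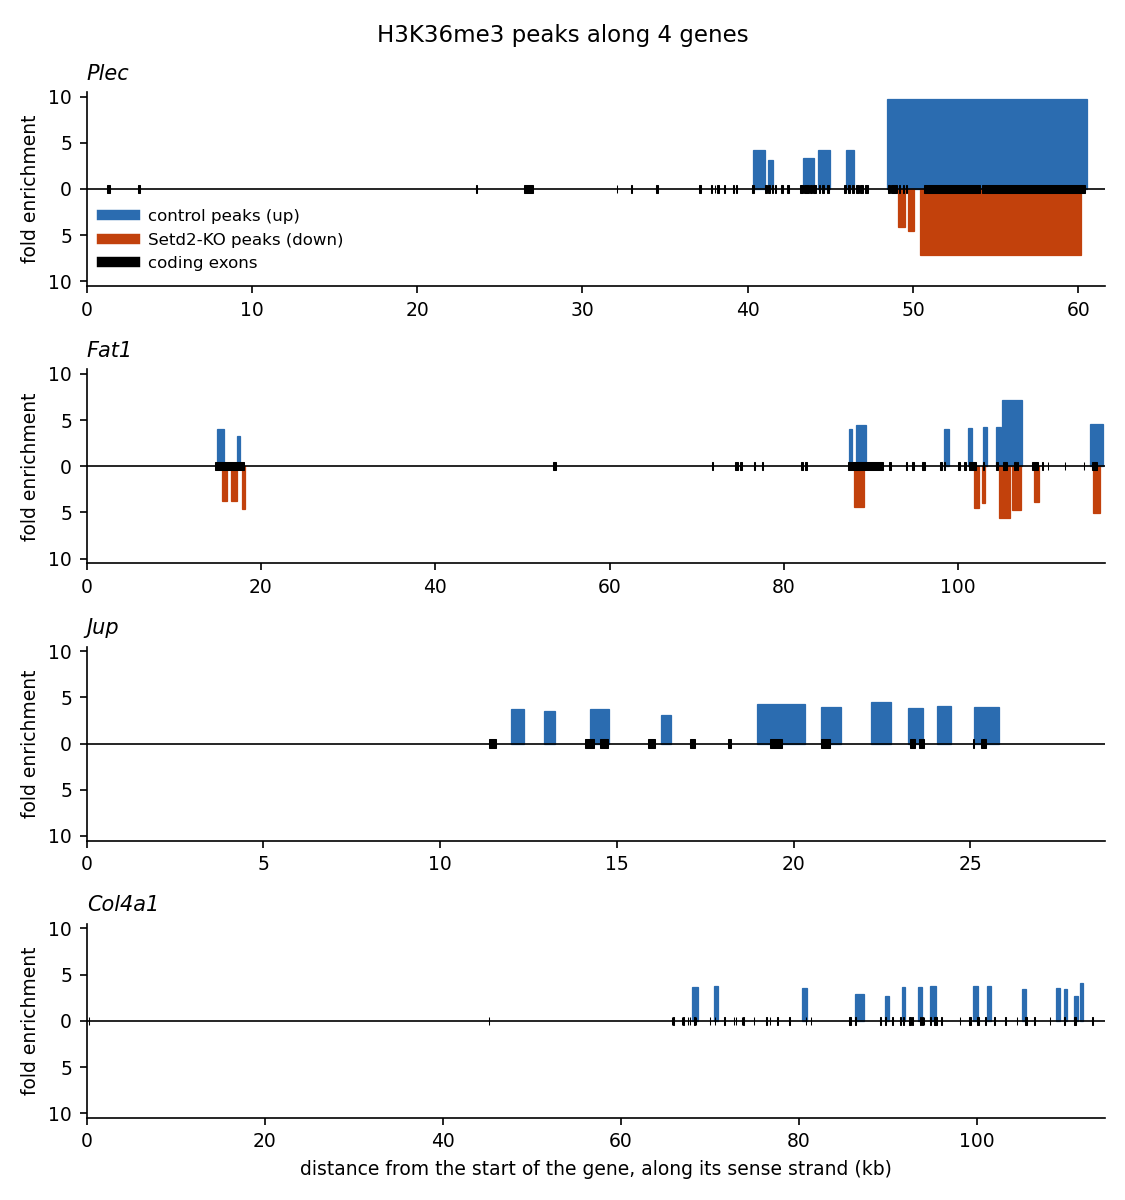
Peaks along Plec, Fat1, Jup and Col4a1, with distance from the start of the gene on the x axis (kb) and the fold enrichment at each summit as the height of the box over the whole peak, control upward (blue) and Setd2-KO downward (orange), with coding exons in black on the line. In Plec the longest boxes of both genotypes stand over exons 32 and 33, 6 of the 10 boxes of Fat1 in each genotype overlap a box of the other, and Jup and Col4a1 have boxes in control alone.

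Jup encodes plakoglobin, also called gamma-catenin, which sits in both desmosomes and adherens junctions. The gene (ENSMUSG00000001552.14, chromosome 11, 100368958 to 100397763, minus strand) had 10 control peaks over 5523 bp, 19.2% of its length, and 0 Setd2-KO peaks. The nearest Setd2-KO peak lay 49566 bp from any of the control peaks. Jup was therefore more densely covered in control PTECs than Fat1 (7.29% of its length), yet its strongest peak was weaker. Its fold enrichments lay between 3.13 and 4.53 (median 3.91) and its pileups between 27 and 35 fragments. These ranges overlapped those of Fat1, 3.23 to 7.19 (median 4.16) and 25 to 55 fragments.

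The midpoints of the control peaks of Jup ran from 42.3% to 88.4% of the way along the gene. The peaks covered exons 4, 8, 9, 10 and 13 of Jup-201 completely, and its longest peak, 1366 bp from 100377437 to 100378802, overlapped exon 8. Introns held 4119 of the 5523 bp and coding exons 25.1%. For 1 of the 10 peaks, at 100381227 to 100381516, 53.5% of the 50-base words were unique in the genome, and for the other 9 at least 90% were.

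Ctnnb1 encodes beta-catenin, the adherens junction partner of E-cadherin and the effector of Wnt signalling, and is the closest relative of Jup in the list. The gene (ENSMUSG00000006932.17, chromosome 9, 120929216 to 120960507, plus strand) had 5 control peaks over 6156 bp and 5 Setd2-KO peaks over 2378 bp, or 38.6% kept. It is nearly as long as Jup (31292 and 28806 bp), with a like share covered in control PTECs (19.7% and 19.2%). The highest fold enrichment in control was 5.65 in Ctnnb1 and 4.53 in Jup.

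Strong control sites of Ctnnb1 were kept in part. Only 1404 bp, 22.8% of the control bases, were covered in both genotypes. The longest control peak, 2615 bp from 120955347 to 120957961 over exons 9 to 13 with a fold enrichment of 5.28, touched no Setd2-KO peak. The strongest, from 120952917 to 120954156, had 43 fragments over its summit and touched a Setd2-KO peak of 500 bp with 28. In Setd2-KO PTECs exon 14 and parts of exons 3, 4 and 15 were covered, and in control PTECs they were not. Ulk4, a gene on the other strand, overlaps the end of Ctnnb1 and shares 3469 of the control bases and 947 of the Setd2-KO bases. On the part of Ctnnb1 that is not shared, 53.3% of covered bases were kept.

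Tjp1 encodes ZO-1, the scaffold that ties tight junction proteins to actin. The gene (ENSMUSG00000030516.14, chromosome 7, 65296165 to 65527781, minus strand) had 6 control peaks over 2774 bp, 1.20% of its length, and 0 Setd2-KO peaks. The fold enrichments ran from 3.20 to 4.66, and every peak lay in the last of 5 equal pieces of the annotated gene. The nearest annotated start of a coding transcript lay 30656 to 71157 bp from these peaks, closer than the start of the gene. No Setd2-KO peak was called within 748489 bp of any of them, the largest such distance among the 9 genes.

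Cdh1 encodes E-cadherin, the main cadherin of adherens junctions in many epithelia. The gene (ENSMUSG00000000303.12, chromosome 8, 106603351 to 106670246, plus strand) had 0 control peaks and 1 Setd2-KO peak of 386 bp, at 106667525 to 106667910 in an intron at 96.2% of the gene. That peak had 25 fragments over its summit (95% Poisson interval 16.2 to 36.9) and a fold enrichment of 3.13. The lowest pileup of any Setd2-KO peak at the genome-wide background was 23, so the Cdh1 call stood close to the limit of the list. Its −log10 q was 3.93, and the lowest in the list was 3.08. The call ended when a −log10 q of at least 5 or a fold enrichment of at least 4 was asked for. Cdh16, which encodes the Ksp-cadherin whose promoter drove Cre, had no peak in either list.

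Col4a1 and Col4a2 encode the chains that assemble into the most common type IV collagen network of basement membranes, and start head to head from a shared promoter region on chromosome 8. Col4a1 (ENSMUSG00000031502.11, 11198423 to 11312826, minus strand) had 15 control peaks over 7382 bp, and Col4a2 (ENSMUSG00000031503.13, 11312805 to 11449287, plus strand) had 6 over 2548 bp. Neither had a Setd2-KO peak, and the nearest lay 194785 bp from the Col4a2 peaks and 215473 bp from those of Col4a1. The bodies share 22 bp at their starts, where no peak was called.

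In both collagen genes the mark lay far from the shared start. The first control summit stood 68.4 kb into Col4a1 and 111 kb into Col4a2. The peaks of Col4a1 were many and weak, with fold enrichments from 2.66 to 4.09, pileups from 25 to 32 fragments and a longest peak of 1004 bp. Those of Col4a2 ran from 3.43 to 4.22. Coding exons made up 21.4% of the control bases of Col4a1 and 6.36% of those of Col4a2, and of the Col4a1 bases 1477 lay where the antisense gene Gm15418 overlaps it. In 1 of the 6 Col4a2 peaks, 68.8% of 50-base words were unique.

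Itgb1 encodes integrin beta-1, the common partner of the collagen and laminin receptors on epithelial cells. The gene (ENSMUSG00000025809.15, chromosome 8, 128685654 to 128733200, plus strand) had 4 control peaks over 1710 bp and 1 Setd2-KO peak over 576 bp. The 33.7% kept in length is no kept site, since 0 bp were covered in both genotypes. The Setd2-KO peak, in an intron at 128717852 to 128718427, had a fold enrichment of 3.98 and stood 779 bp from the nearest control peak. Control peaks covered 100% of exons 6 and 12 and 45.7% of the final exon 16 of Itgb1-201, and none of these held Setd2-KO bases.

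Over the 9 genes together there were 62 control and 20 Setd2-KO peaks. Of the control peaks, 11 (17.7%, 95% Wilson interval 10.2 to 29.0) touched a Setd2-KO peak, against 12.9% of all 12242 control peaks. Of the Setd2-KO peaks, 12 (60.0%, 38.7 to 78.1) touched a control peak, against 61.3% of all 2732. The intervals take peaks as independent, although those of a gene are not. All 11 kept control peaks belonged to Plec (1), Fat1 (6) and Ctnnb1 (4).

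At the kept sites the peaks were mostly shorter and lower in Setd2-KO PTECs. When each of the 11 control peaks was set beside the Setd2-KO peak it shared most bases with, the latter had the lower pileup in 10, the lower fold enrichment in 8 and the smaller length in 8. In every pair the counting intervals of the pileups overlapped, so no single pair shows a fall beyond counting error. The ratio of fold enrichments ran from 0.619, at the strongest Ctnnb1 peak, to 1.32, at a Fat1 peak over exon 21, with a median of 0.942. The Setd2-KO summit of that Fat1 pair lay outside the exon 21 control peak and inside the neighbouring, strongest Fat1 control peak. Paired summits stood 122 to 1137 bp apart, so a ratio need not compare the same site. A single Setd2-KO peak served for 2 neighbouring Ctnnb1 control peaks. These ratios leave out all sites where no Setd2-KO peak was called.

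A lost call need not be a large loss. The lowest pileup of a Setd2-KO peak at the genome-wide background was 23 fragments, and 54 of the 62 control peaks had fewer than 34.5 fragments, 1.5 times that value. The same held for 82.3% of all control peaks. In Jup 9 of 10, in Col4a1 15 of 15 and in Col4a2 6 of 6 control peaks were below it, as were 5 of 6 in Plec and 8 of 10 in Fat1. Of the 11 control peaks that touched a Setd2-KO peak 6 were below it, and of the 51 that did not, 48 were. The lists give no value for a site without a peak, so how far the mark fell at these sites was not measured.

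**Figure D3:**
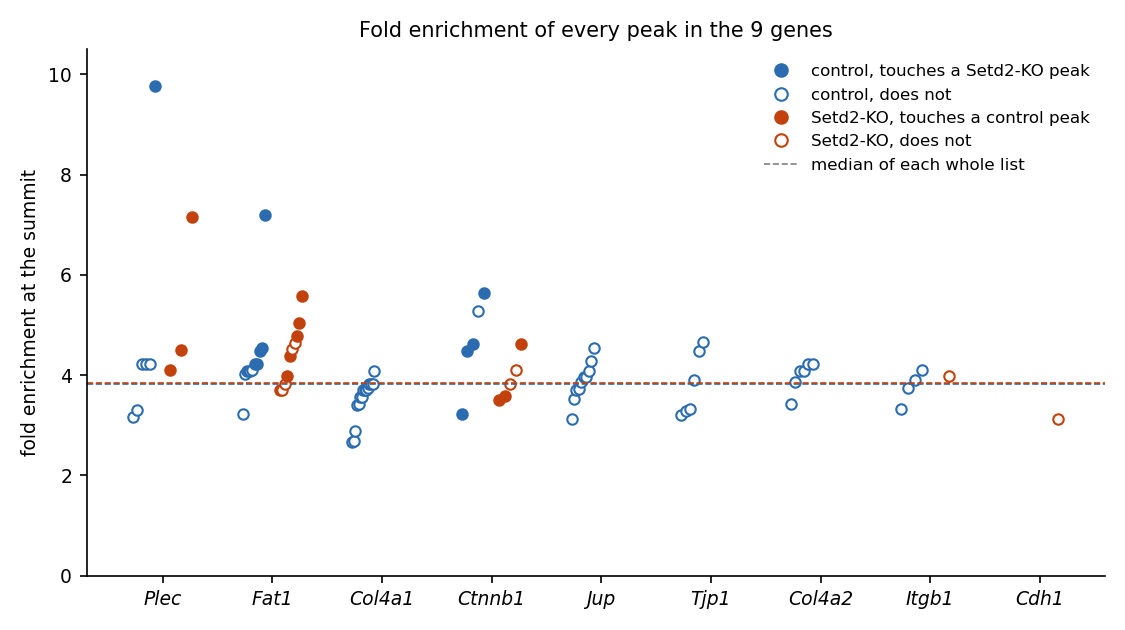
Fold enrichment at the summit (y axis) of every peak in the 9 genes, control in blue and Setd2-KO in orange, filled where the peak touches a peak of the other list and open where it does not, with the medians of the whole lists (3.83 and 3.85) as dashed lines. The highest control points, 9.76 in Plec and 7.19 in Fat1, are filled, and every point of Jup, Tjp1, Col4a1 and Col4a2 is open and at or below 4.66.

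The order of the genes by their strongest control peak was Plec (9.76), Fat1 (7.19), Ctnnb1 (5.65), Tjp1 (4.66), Jup (4.53), Col4a2 (4.22), Itgb1 (4.11) and Col4a1 (4.09). The first 3 have kept sites, but the genes were picked by the bases they kept, so nothing is read from this order. Peak by peak the fold enrichments overlapped: 3.23 to 9.76 for control peaks that touched a Setd2-KO peak and 2.66 to 5.28 for the others. Over all marked genes, the share with a Setd2-KO peak rose with the strongest control peak, and the reason was not tested. Of the 62 genes whose highest control fold enrichment was 7 or more, 60 (96.8%, 95% Wilson interval 89.0 to 99.1) had a Setd2-KO peak and 50 (80.6%) kept more than 50% of their covered bases. The share keeping more than 50% did not rise steadily: it was 12.5% below 3.5, 10.6%, 7.65% and 11.2% in the next classes, and 23.2% between 5 and 7. Between 5 and 7, the class of Ctnnb1, 68.0% of 487 genes had one, between 4.5 and 5, the class of Jup and Tjp1, 51.3% of 534, and between 4 and 4.5, the class of both collagens and Itgb1, 33.9% of 1294. Genes with higher enrichment can also have more peaks, which these shares do not separate.

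**Figure D4:**
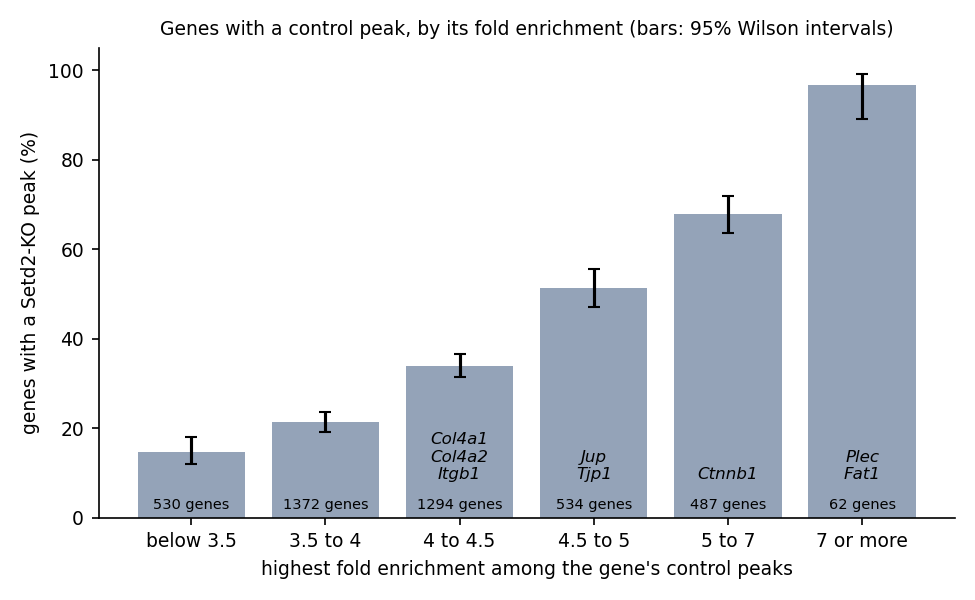
Percent of genes with a Setd2-KO peak (y axis) among the 4279 genes with a control peak, by the highest fold enrichment of the gene's control peaks (x axis), with 95% Wilson intervals as error bars and the examined genes written in their class. The share is 14.7% below a fold enrichment of 3.5 and 96.8% at 7 or more, the class of Plec and Fat1. The intervals take genes as independent, although overlapping genes can share peaks.

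Along the genes, the control peaks lay toward the end: 58 of 62 had their midpoint past the middle of the gene, and 36 in the last of its 5 equal pieces. For Setd2-KO peaks these counts were 17 and 12 of 20. The early peaks were those of Fat1 over its long first coding exon and 2 of Jup. Of the 62 control peaks 45 touched an exon and 21 had the summit in a coding exon, and of the 20 Setd2-KO peaks 16 and 10. Set against the coding share of each gene, coding bases were 3.25 times as frequent under control peaks in Plec, 4.73 in Fat1, 3.24 in Jup and 4.77 in Col4a1. The ratio was 3.03 in Ctnnb1, 5.39 in Itgb1, 12.3 in Tjp1 and 1.69 in Col4a2. Tjp1 and Col4a2, both without a Setd2-KO peak, thus had the highest and the lowest value. The genes that kept and those that lost their peaks thus overlapped in this measure, and the higher coding content under the peaks of Plec and Fat1 stood beside a higher coding content of the genes themselves (24.1% and 11.9%, against 7.76% in Jup and 4.48% in Col4a1). At least 90% of 50-base words were unique in 60 of the 62 control peaks and in all 20 Setd2-KO peaks, those of Plec and Fat1 included.

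Genes with a pattern like that of the 4 contrasted genes were sought among those with control covered bases within 25% of each. Nearest to Plec in percent kept, of 14 candidates, were Zfp942 (64.7%), 2610008E11Rik (63.8%) and Zfp810 (58.0%). Nearest to Fat1, of 80, were Zfp606 (87.9%), Gm49345 (85.2%) and Zfp68 (89.8%). Most of the covered bases were kept in 4 of the 14 candidates for Plec and in 15 of the 80 for Fat1. Of the 6 genes named, 4 are named as zinc finger genes. The share of zinc finger genes among the candidates or among all marked genes was not counted, so nothing is read from this number. Of the 190 candidates for Jup 36 had no Setd2-KO peak, the nearest in control bases being Csnk1a1 (5499 bp), Hnrnpl (5561 bp) and Zzef1 (5442 bp). Of the 99 for Col4a1 only 4 had none, and Trib2 (6746 bp), Supt6 (8528 bp) and Kidins220 (5891 bp) were the nearest.

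Lists of 169 distinct adhesion and cytoskeleton genes, the 9 included, gave the surrounding pathway. A control peak was called in 54 of them (32.0%, against 19.5% of all genes) and a Setd2-KO peak in 25, against 7.37% of all genes. These counts include the 9 genes, which were picked by their covered bases. Without the 9 genes, 46 of 160 (28.75%, against 19.5% of all genes) had a control peak. A Setd2-KO peak was called in 20 of the 160, against 7.37% of all genes. Each of these 20 also had a control peak, so they are 20 of the 46, against 34.5% of all marked genes. Covered bases were lower by 2-fold or more in 42 of the 46, near the 87.5% of all marked genes, and the median share kept was 0%, as it was over all marked genes. The 4 others, which kept more than 50%, were Cgnl1 (92.0% of 411 bp), Lamc1 (67.8% of 1113 bp), Pkp4 (58.5% of 3903 bp) and Vcl (58.1% of 1142 bp). These percents compare lengths, and whether the same bases were covered in these 4 genes was not counted.

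**Figure D5:**
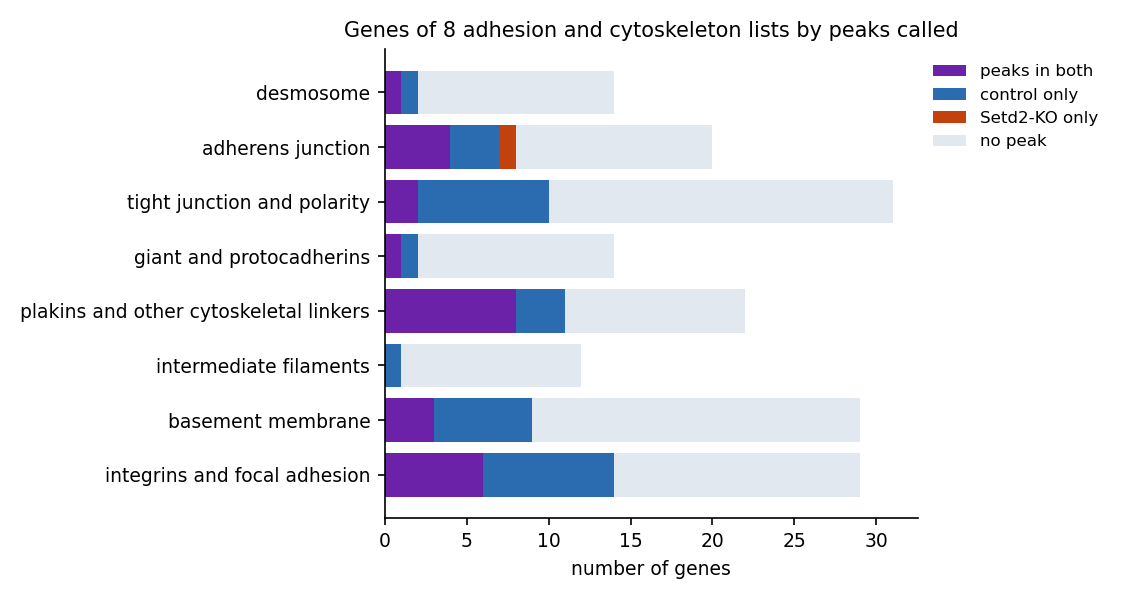
Number of genes (x axis) in 8 adhesion and cytoskeleton lists with peaks in both genotypes (purple), in control alone (blue), in Setd2-KO alone (orange) or in neither (grey). The linker list has the most genes with peaks in both, 8 of 22, and the desmosome, giant cadherin and intermediate filament lists have 2, 2 and 1 genes with a control peak.

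The counts of the 8 lists stand against shares over all genes of 19.5% in control and 7.37% in Setd2-KO PTECs. Of 22 cytoskeletal linker genes, 11 (50%) had a control peak, 8 of them marked in Setd2-KO PTECs as well. Plec had fewer control bases than Sptan1 (22915 bp), the alpha-spectrin of the membrane skeleton, and Myh9 (15585 bp), a non-muscle myosin heavy chain, but more Setd2-KO bases than either. Sptan1 kept 5100 bp (22.3%) and Myh9 4615 bp (29.6%), and the giant linkers Macf1 and Dst kept 17.4% and 16.2%. In this list Plec, picked for the bases it kept, was the only 1 of the 11 marked genes to keep more than 50%, against 12.5% of all marked genes. Of 29 integrin and focal adhesion genes, 14 (48.3%) were marked in control and 6 in both genotypes, led by Tln1, which encodes the integrin activator talin (19309 bp and 6321 bp). The integrin gene Itgav had 5538 bp and 724 bp, and Bcar1, an adhesion scaffold gene, 3062 bp and 0 bp.

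Of 20 adherens junction genes, 7 were marked in control PTECs and 5 in Setd2-KO PTECs, Cdh1 among the latter. Ctnnb1 had the most bases in both genotypes. Ctnnd1, which encodes p120-catenin, had 3614 bp and 289 bp, all of it also annotated to the predicted gene Gm28635. Of 31 tight junction and polarity genes, 10 were marked in control and 2 in both, where Llgl2, a polarity gene, had 3426 bp and 707 bp, more than Tjp1, and F11r, which encodes the adhesion molecule JAM-A, had 1023 bp and 0 bp.

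Desmosome, giant cadherin and intermediate filament genes were marked no more often than the 19.5% of all genes. Of 14 desmosome genes, 2 (14.3%) were marked in control, Jup and Pkp4 (3903 bp and 2284 bp). Pkp4 belongs to the armadillo family as Jup does, and the desmoplakin gene Dsp had no peak. Of 14 giant cadherin and protocadherin genes, 2 (14.3%) were marked, Fat1 and Pcdh1 (2050 bp and 0 bp). Of 12 intermediate filament genes (8.33%) only Lmna (1259 bp and 0 bp), a nuclear lamin gene, had a control peak, and all 7 keratin genes listed had none.

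Of 29 basement membrane genes, 9 were marked in control and 3 in both. The list was led by the type IV collagens: Col4a1, then Col4a4 with 12 control peaks over 5437 bp and 0 Setd2-KO peaks. Col4a3, its head-to-head partner, had 2438 bp and 427 bp. Together the 6 type IV collagen genes held 39 control peaks over 17805 bp and 1 Setd2-KO peak over 427 bp, with no peak in Col4a5 and Col4a6 on chromosome X. Among the laminins, Lama5 had 2993 bp and 0 bp, Lamb1 1579 bp and 291 bp, and Lamc1 1113 bp and 755 bp.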

How the data were processed

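H3K36me3 ChIP-seq peaks of 2 genotypes were used, with 1 ChIP and 1 input library each. Lack of a peak is not absence of the mark. Per the labels and methods, the authors trimmed reads with cutadapt 1.9.1 and Trimmomatic 0.35, mapped them with Bowtie2 2.2.6 to GRCm38 and called peaks with MACS2 2.1.1 in each ChIP library against its input. The deposited lists give position, pileup (the signal, in fragments over the summit), fold enrichment (a ratio to local background), and −log10 p and −log10 q. The lowest −log10 q was 3.09 and 3.08. The methods and the reporting form name different thresholds, and these minima match neither, so the rule behind a call is not known. The groups follow the labels.

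Peaks were assigned to a gene at 1 bp of overlap with its GENCODE M21 body. Peaks were shared at 1 bp of overlap. Exon numbers follow the transcript with the longest coding sequence. The members and lists were chosen with earlier results of these data known. Named genes were the members, genes overlapping them, the 3 with the most control and Setd2-KO bases in each list, and the 3 of like pattern. Setd2, Macf1, Dst, Dsp, Cdh16, Col4a5, Col4a6 and the cell type markers named were added after their values were seen. Gene symbols matched for all 169 list genes. Sequence and 50-base words came from the RefSeq chromosomes of GRCm38.p6. Base counts were tested on simulated data (300 of 300 genes recovered). Python 3.11.15, numpy 2.4.6, pandas 2.3.3 and scipy 1.17.1 were used.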

Additional observations from a re-analysis of the deposited data

How the results depend on the processing

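With 1 library per genotype no replicate could be left out. No paired analysis was possible because each genotype has 1 ChIP library. Jup, Tjp1, Col4a1 and Col4a2 had no Setd2-KO peak in any of the 5 or 6 settings that left them a control peak. These settings could not have shown otherwise and lend the loss no support. Only the extension by 1 kb could add Setd2-KO peaks to a gene, and the nearest one lay 49566 bp or more from their control peaks. At a fold enrichment of at least 4, 3 genes had a Setd2-KO peak. At a fold enrichment of at least 5, 3 genes had a control peak and 2 a Setd2-KO peak, and 50% of 4 control peaks were shared. With the control list limited to its strongest peaks by −log10 q, as many as the Setd2-KO list holds, 5 genes had a control peak and 61.5% of 13 control peaks were shared. Then Col4a1, Col4a2 and Itgb1 had no control peak. The share of bases kept ranged over all settings from 69.8% to 86.8% in Plec, 63.8% to 134.4% in Fat1, 0% to 53.3% in Ctnnb1 and 0% to 49.0% in Itgb1, and the 0% of Ctnnb1 came at a fold enrichment of at least 5. The other settings left the counts of genes within 1.5 times the main counts, and the shared share within its 95% interval. Most peaks stand close to the lowest pileup that was called, and how the lists depend on sequencing depth was not tested.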
